A study of Mus musculus with 24 samples.

Results

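Long intergenic noncoding RNAs (lincRNAs) were measured in the mouse adrenal gland with 60-base oligonucleotide probes placed in intervals that the array design labels as lincRNA. The array carries 16251 such probes for 3555 intervals of the mm9 genome. Probes on the sex chromosomes (587) and in a stretch of chromosome 5 around Kcnk3, the gene disrupted in the mutant (236), were left out, which left 15428 probes in 3355 intervals. Of these, 7713 probes (49.99%) in 2604 intervals had a spot well above the local background on 3 or more of the 24 arrays, and these are the lincRNA probes described here. The choice used detection alone and no difference between groups. The animals were C57BL/6 mice, either wild type (WT) or Kcnk3 null. Kcnk3 encodes the two-pore potassium channel TASK-1, which helps set the resting potential of adrenal cortical cells. Males were sham-operated or castrated, and females were sham-treated or given testosterone, so that each genotype has 4 groups: sham males, castrated males, sham females and testosterone-injected females. Each of the 8 groups had 3 arrays, each of total RNA from whole adrenal gland labelled with Cy3. The labels do not say whether the glands of an array came from 1 animal or were pooled, so p-values measure the spread between these samples.

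LincRNAs are transcripts of DNA between protein-coding genes that encode no known protein. Most are made by RNA polymerase II, and many are spliced, capped and polyadenylated. They are often low and restricted to few tissues, many stay in the nucleus, and those studied in detail act on chromatin, on splicing or as scaffolds for proteins, while the role of most is unknown. In the mouse adrenal the inner cortex next to the medulla holds the X-zone, a transient layer that regresses in males at puberty and returns after castration, and that testosterone removes in females.

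The probes that carry the largest differences are shown first, each as the 60 bases printed on the array, 5′ to 3′, in the orientation of the transcript named by the design. Capitals mark AATAAA or ATTAAA, the hexamers found upstream of many polyadenylation sites, and a probe in lower case throughout holds neither. The first is the single probe of chr1:138579972-138587381 (forward strand, probe at chr1:138579991-138580050), which was high in castrated null males and sham null females.
A_30_P01024637: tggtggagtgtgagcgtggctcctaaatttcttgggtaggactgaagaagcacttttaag
The next are the 3 probes of chr8:69416817-69417583 (forward strand), which rose in the same null groups.
A_30_P01019362: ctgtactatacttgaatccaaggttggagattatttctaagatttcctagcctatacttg
A_30_P01031487: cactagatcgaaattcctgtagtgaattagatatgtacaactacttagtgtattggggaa
A_30_P01032123: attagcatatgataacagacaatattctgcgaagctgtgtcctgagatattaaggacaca
The following probes were higher in WT groups with low androgen. They are 2 overlapping probes at chr8:89996710-90061169, 3 adjoining probes at the end of chr17:29571806-29603008 and 1 probe of chr16:23543837-23560153, all on the forward strand, and the probe of chr1:152001112-152012796 on the reverse strand.
A_30_P01024770: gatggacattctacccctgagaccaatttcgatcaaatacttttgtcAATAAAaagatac
A_30_P01032532: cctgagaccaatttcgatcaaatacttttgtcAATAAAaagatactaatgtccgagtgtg
A_30_P01024059: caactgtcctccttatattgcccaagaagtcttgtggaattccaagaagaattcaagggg
A_30_P01027519: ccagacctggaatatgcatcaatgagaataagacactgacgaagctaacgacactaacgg
A_30_P01030222: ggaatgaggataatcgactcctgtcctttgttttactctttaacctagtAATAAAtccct
A_30_P01018953: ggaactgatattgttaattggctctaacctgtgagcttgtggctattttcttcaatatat
A_30_P01020139: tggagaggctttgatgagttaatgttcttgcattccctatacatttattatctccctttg
The last were lower in some or all null groups. The first 3 intervals were lower in null than WT glands in the genotype average, and the next in castrated null than castrated WT males. The probes of chromosome 19 were lower in castrated than sham null males. Shown are 1 probe of chr1:85156338-85167730 (reverse strand), 3 adjoining probes of chr14:103751075-103769725 (forward strand), 3 probes of chr2:119697845-119719245 (forward strand), 3 probes of chr1:73664661-73911040 (reverse strand) and 2 probes of chr19:46422690-46423478 (reverse strand).
A_30_P01019834: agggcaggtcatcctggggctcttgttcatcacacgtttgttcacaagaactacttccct
A_30_P01020301: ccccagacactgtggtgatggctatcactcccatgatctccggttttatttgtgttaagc
A_30_P01027805: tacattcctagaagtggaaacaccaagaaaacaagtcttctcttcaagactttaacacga
A_30_P01018124: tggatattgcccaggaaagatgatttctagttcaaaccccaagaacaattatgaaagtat
A_30_P01021081: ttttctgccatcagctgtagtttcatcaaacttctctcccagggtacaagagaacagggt
A_30_P01030223: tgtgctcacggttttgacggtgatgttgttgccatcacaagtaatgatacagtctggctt
A_30_P01021461: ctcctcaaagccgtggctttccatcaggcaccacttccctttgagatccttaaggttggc
A_30_P01031678: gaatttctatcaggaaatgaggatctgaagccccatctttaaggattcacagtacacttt
A_30_P01022954: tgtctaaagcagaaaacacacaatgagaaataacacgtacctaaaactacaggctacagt
A_30_P01022642: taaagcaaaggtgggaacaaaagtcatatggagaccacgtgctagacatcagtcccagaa
A_30_P01028196: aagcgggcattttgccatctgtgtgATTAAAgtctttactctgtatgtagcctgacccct
A_30_P01020017: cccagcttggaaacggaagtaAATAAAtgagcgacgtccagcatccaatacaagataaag
AATAAA occurred in 308 of the 7713 lincRNA probes (3.99%), in 12 of the 182 that passed the test in any comparison (6.59%), in 3.92% of all 16251 lincRNA probes of the array and in 12.6% of its other 39430 probes. ATTAAA occurred in 179 (2.32%), 8 (4.4%), 2.47% and 4.55% of the same sets, read on the printed strand only. A match is a description of the letters and not a cleavage site.

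The other probes of the array give the setting. Kcnk3 signal was 9.48% to 69% of the male WT sham mean on the 12 null arrays and 71% to 196% on the 12 WT arrays. On 9 arrays the sex-linked genes went against the label, in that the Y-linked genes of a female array reached 10% or more of the male WT sham mean, or Xist of a male array 10% or more of the female null sham mean: female WT sham replicates 2 and 3, female WT testosterone replicates 1 to 3, male null sham replicates 1 and 2 and male null castrated replicates 1 and 2. No female WT testosterone array is left without these, so comparisons that use that group cannot be given without them. WT sham females and both groups of null males keep 1 array each, which the fit then assumes to vary like the other groups. Albumin, a liver product, was at 7.39 and 8.30 on male WT sham replicate 3 and female null testosterone replicate 1 and at 1.26 or below on the others, as log2 of the signal over the array's 75th percentile. The summed level of the 3 X-zone markers, on the same log2 scale, ranged from 1.52 to 3.80 in male WT sham, 8.04 to 8.56 in castrated WT, 7.43 to 9.01 in female WT sham, 6.15 to 6.95 in female WT testosterone, 2.79 to 7.52 in male null sham, 7.66 to 8.11 in castrated null, 4.92 to 7.19 in female null sham and 1.49 to 4.46 in female null testosterone arrays. A lower level in whole gland can mean fewer cells of a type or less RNA per cell, which cannot be told apart here.

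LincRNA probes were detected less often than the rest of the array. Of the 7713 probes, 4382 (56.8%) were well above background on all 24 arrays and 327 on exactly 3. Another 663 probes were above background on 2 arrays, just outside the rule, and 5355 on none. By the same rule 28679 of the 39430 other probes (72.7%) were kept, and 81.1% of those were above background on all 24 arrays. The detected lincRNA probes were spread over the groups, with 6001 above background on at least 1 array of each of the 8 groups and 0 seen in 1 group only. The kept share ran from 42.8% on chromosome 9 to 56.2% on chromosome 17. Intervals ranged from 62 to 7128487 bases with a median of 7378, 843 had 1 detected probe, 1761 had 2 or more, and the most had 20. Both strands were probed in 1026 intervals, and both strands were detected in 692 of them, 1 strand in 272 and neither in 62. Counted by interval and strand, 541 of 3296 units also held a probe for an annotated gene on the same strand. It was a long noncoding RNA gene in 192 and a protein-coding gene in 165. Some lincRNA probes may thus read a gene that now has a name, which was not tested. A stretch of 20 bases shared with a probe elsewhere on the array was found in 314 lincRNA probes (4.07%).

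Differences were tested with limma for 10 pairs of groups, for the null minus WT difference averaged over its 4 pairs, for low minus high androgen averaged over its 4 pairs, and for the genotype by androgen interaction. A probe is called when its p-value, adjusted over all 31047 features tested by the Benjamini-Hochberg method, is under 0.05. Differences are on the log2 scale, where 1 is a doubling, and each is given with its standard error (SE) and 3 arrays a group. In all, 182 lincRNA probes of 130 intervals were called in at least 1 comparison and 7531 in none. The called share of the lincRNA probes was below that of the other features in each of the 13 comparisons. The widest gap was in the androgen average, with 0.908% of lincRNA probes and 3.45% of the other features called. The median SE of a pairwise difference was 0.421 for lincRNA probes and 0.256 for the other features. Among the 4382 lincRNA probes detected on all arrays the called share in the androgen average was 1%, against 3.47% of the 18576 other features detected on all arrays.

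The androgen comparisons ask which lincRNAs follow castration, testosterone and sex. After castration of WT males 17 lincRNA probes rose and 2 fell, where 0.606% of all features were called (21 rose and 0 fell after normexp and quantile normalization, 22 and 0 with the deposited values, 26 and 6 with slide as a block). Female WT sham glands differed from male ones in 55 lincRNA probes, where 2% of all features were called, 370 higher and 250 lower. Of the 55, 29 were higher and 26 lower in females (58 and 94 with slide as a block). Without the arrays that go against their label the split was 21 higher and 95 lower, with the median of all lincRNA probes at -0.34 in place of -0.01, and the castration split in WT males was 15 and 0. After testosterone in WT females 0 probes rose and 3 fell (1 and 5 under quantile normalization, 3 and 20 with slide as a block). Of all features 0.0805% were called, 10 higher and 15 lower. Averaged over the 4 pairs, 46 lincRNA probes were higher and 24 lower with low androgen, where 2.79% of all features were called (95 and 79 with slide as a block). The 3 X-zone markers were all called higher in that average, with a median of 4.83, and in the female to male WT comparison. Their part in the lincRNA results was not tested.

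The largest rise after castration in WT males was at chr8:89996710-90061169, where 6 forward-strand probes of 3 overlapping intervals were detected. For A_30_P01024770 the levels were -3.23, -3.21 and -3.28 in male WT sham, -0.19, 0.18 and -0.29 in castrated WT and 0.15, -0.18 and -1.64 in female WT sham arrays, as log2 of the signal over the array's 75th percentile, the scale of all levels below. In null glands the levels were -1.59, -1.31 and -2.63 in male sham, -1.02, -1.22 and -0.59 in castrated, -2.07, -2.25 and -2.86 in female sham and -2.79, -4.66 and -3.57 in female testosterone arrays. Female WT testosterone arrays gave -1.82, -2.61 and -2.24. The castrated and female WT sham arrays were all above the male WT sham arrays, and the null arrays ranged from -4.66 to -0.59. The castration difference was 3.14 ± 0.46 (SE, n = 3 and 3; adjusted p = 0.00185), and on the 3 slides that hold both groups it ranged from 2.99 to 3.39. Without the arrays that go against their label the female minus male WT difference went from 2.68 to 3.39 and stayed called (adjusted p = 0.0199). Of the 6 probes, 5 were called after castration, at 2.83 to 3.14, and all 6 in the female to male WT comparison, at 1.78 to 2.68, and in the androgen average, at 0.95 to 1.81. A_30_P01024770 shares 45 bases with A_30_P01032532 and 15 with A_30_P01024798, so these probes are not independent. The nearest named gene probe, for Gm2694, lies 52.5 kb away on the same strand, inside the interval, and was also called after castration (1.65 ± 0.30, adjusted p = 0.0119).

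At chr17:29571806-29603008 all 3 probes, which adjoin at the 3′ end of the interval, were higher with low androgen. A_30_P01030222, the most 3′ probe and the one with AATAAA, gave -1.20, -1.07 and -1.01 in male WT sham, 0.90, 0.74 and 0.32 in castrated WT, 0.65, 0.75 and 0.47 in female WT sham and -0.39, -0.75 and -1.18 in female WT testosterone arrays. Its null arrays gave -0.08, -0.38 and -0.59 in male sham, -0.20, 0.01 and 0.27 in castrated, -0.12, -0.10 and -0.71 in female sham and -1.03, -1.22 and -0.65 in female testosterone groups. In WT glands both low-androgen groups were above both high-androgen groups on every array. The castration difference of the 3 probes was 1.71 to 1.78, and A_30_P01024059 led with 1.78 ± 0.29 (adjusted p = 0.00361). The female minus male WT difference was 1.63 to 1.72. Testosterone in WT females lowered A_30_P01027519 by 1.51 (-1.51 ± 0.24, adjusted p = 0.0249). Pim1, a serine/threonine kinase gene 27.8 kb away on the same strand, was not called in the castration comparison.

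Probes of neighbouring intervals on chromosome 16 also rose after castration in WT males. A_30_P01018953, in chr16:23543837-23560153, gave -3.83, -3.42 and -2.64 in male WT sham, -0.98, -1.22 and -0.73 in castrated WT and -0.24, -0.77 and -1.25 in female WT sham arrays. The groups did not overlap, and the differences from male WT sham were 2.32 ± 0.36 after castration (adjusted p = 0.00263) and 2.54 ± 0.36 in females (adjusted p = 0.000621; 3.05 and 0.0223 without the arrays that go against their label). A second probe of that interval, A_30_P01030265, was also called in both, but it was not well above background on any male WT sham array. In chr16:23534663-23535172, A_30_P01020675 rose by 1.69 (adjusted p = 0.0223) and A_30_P01028355 by 1.66 (adjusted p = 0.00589) after castration, and the third probe, A_30_P01028345, had a difference of 2.28 that was not called.

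A_30_P01020139, the reverse-strand probe of chr1:152001112-152012796, was above background on 5 arrays only. It gave -4.66, -5.05 and -4.61 in castrated WT and -4.66, -5.36 and -4.71 in female WT sham arrays. The means of these groups were -4.77 and -4.91, against -7.41 in male WT sham, -7.12 in castrated null and -7.04 in female null sham arrays, where it was not well above background. It was at least 1.65-fold higher after castration in WT males, at least 1.51-fold higher in female than male WT sham glands, at least 1.65-fold lower in castrated null than castrated WT males and at least 1.35-fold lower in null than WT sham females. Each bound sets the bright group's mean against the dimmest signal that counted as above background. The probe passed the detection rule through the groups where it is high, so these differences are a description and no test is given. Ptgs2, the gene of an inducible prostaglandin synthase 53.0 kb away on the opposite strand, was not called in these comparisons.

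Some lincRNA probes were lower in females. A_30_P01026182, 1 of 3 detected reverse-strand probes of chr9:63774461-63784928, gave -4.0, -3.54 and -4.54 in male WT sham arrays, and was not well above background on any female WT sham array. It was at least 2.86-fold lower in females, with group means of -4.03 in males and -6.54 in females. Its adjusted p of 0.0137 rests in part on that dim signal. Without the arrays that go against their label the fitted difference went from -2.51 to -3.53, with 1 female WT sham array left. Of its companions 1 was called as well and the other differed by -0.43. Smad6, whose product inhibits bone morphogenetic protein signalling, lies 26.1 kb away on the same strand and was lower as well (-0.90 ± 0.20, adjusted p = 0.0251). On the opposite side, A_30_P01020131 (chr17:56687541-56694631, reverse) gave -3.79, -2.75 and -4.07 in female WT sham arrays. It was not well above background in male WT sham arrays and at least 3.89-fold higher in females, with group means of -3.54 in females and -7.18 in males. Its adjusted p of 0.0244 rests in part on that dim signal, and the other 3 probes of its interval and strand differed by 0.13 to 0.43. It was not called without the arrays that go against their label (adjusted p = 0.0903). At chr5:14921737-15062725 5 of 12 probes were called higher with low androgen. Of these, A_30_P01031045 and A_30_P01032743 share a stretch of 20 bases or more with each other, and A_30_P01031045 also with a Speer8-ps1 probe, so they are not separate readings. Some probes there were not well above background in whole groups, so no sizes are given.

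In null glands the androgen comparisons gave other counts, also over all features. Of all features called, 134 were higher and 180 lower after castration of null males, and 115 were higher and 117 lower in null sham females. After testosterone in null females 9 were higher and 53 lower, and the interaction was above 0 for 84 and below 0 for 35. After castration of null males 4 lincRNA probes rose and 16 fell, where 1.01% of all features were called (12 and 39 with slide as a block), and 1 was called without the arrays that go against their label. Null sham females and males differed in 12 probes, 7 higher and 5 lower in females (0.747% of all features called), and in 1 without the arrays that go against their label. That split was 6 and 9 after normexp and quantile normalization, 3 and 13 under quantile normalization alone, 5 and 6 with the deposited values and 29 and 20 with slide as a block. After testosterone in null females 0 probes rose and 3 fell (0.2% of all features called; 1 and 1 after normexp and quantile normalization, 1 and 2 under quantile normalization alone, 4 and 13 with slide as a block). The interaction, which tests whether the null minus WT difference at low androgen departs from that at high androgen, was called for 11 lincRNA probes, 8 above and 3 below 0, where 0.383% of all features were called (5 and 7 after normexp and quantile normalization, 6 and 5 with the deposited values, 13 and 13 with slide as a block).

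A_30_P01024637, the only detected probe of chr1:138579972-138587381, was called in 8 of the 13 comparisons. In castrated null males it was at 1.14, -0.03 and 0.44 and in female null sham arrays at 1.06, -0.32 and -0.63. Male null sham arrays gave -3.57, -3.63 and -3.96 and female null testosterone arrays -3.50, -3.20 and -3.76. The WT arrays gave -4.34, -4.36 and -4.49 in male sham, -2.38, -2.61 and -3.0 in castrated, -2.33, -2.88 and -3.81 in female sham and -0.59, -2.22 and -1.67 in female testosterone groups. The low-androgen null arrays were thus above all sham and castrated WT arrays and all high-androgen null arrays. In testosterone-injected females the order was the other way, with the null arrays below the WT arrays. In WT females the testosterone arrays were above the sham arrays. Neither of these differences was called. The genotype and androgen averages of this probe thus join pairs of opposite sign. Castration of null males raised it by 4.24 ± 0.45 (adjusted p = 5.85e-05) and testosterone in null females changed it by -3.53 ± 0.45 (adjusted p = 0.00146). The null minus WT difference was 3.18 ± 0.45 in castrated males (adjusted p = 0.000984) and 3.04 ± 0.45 in sham females (adjusted p = 0.002), and the interaction was 3.77 ± 0.45 (adjusted p = 0.000221). Without the arrays that go against their label the differences in castrated males and sham females were 3.1 and 2.37 and were not called (adjusted p = 0.104 and 0.13). The castration difference in null males was 4.40 and not called (adjusted p = 0.0737), while the testosterone difference in null females and the female minus male difference in null glands stayed called (adjusted p = 0.014 and 0.0376). Over the 24 arrays the feature most like it was Naf1 (Pearson r = 0.965), whose product assembles ribonucleoproteins of the box H/ACA type, and which lies on chromosome 8.

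Naf1 is also the nearest named gene of chr8:69416817-69417583, 2.8 to 3.0 kb away on the same strand. A_30_P01031487 gave -1.75, -2.41 and -2.38 in castrated null and -1.60, -2.21 and -2.21 in female null sham arrays. Its other arrays ranged from -4.43 to -2.74, so that these 6 arrays were the highest of the 24. The null minus WT difference was 1.95 ± 0.29 in sham females (adjusted p = 0.002) and 1.26 ± 0.29 in castrated males (adjusted p = 0.0493). The first was 1.82 and not called without the arrays that go against their label (adjusted p = 0.0622). All 3 probes were called in sham females, at 1.52 to 1.95, in the null female to male comparison, at 1.31 to 1.40, and in the interaction, at 1.44 to 1.71. Naf1 itself was called in the same comparisons, at 1.14 ± 0.25 in sham females (adjusted p = 0.0477) and 1.12 ± 0.25 in castrated males (adjusted p = 0.0387). At chr12:109619407-109619843 3 probes had an interaction of 0.85 to 1.11, and A_30_P01021689 was higher in null than WT sham females by 0.99 ± 0.18 (adjusted p = 0.014), or 1.02 without the arrays that go against their label, not called (adjusted p = 0.273).

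The genotype comparisons ask which lincRNAs differ between Kcnk3 null and WT glands. In sham males 0 lincRNA probes were called by limma, where 0.0837% of all features were. At an unadjusted p under 0.05 there were 303 of 7713, a share below the 0.05 that this threshold lets through without any difference. Taking slide as a block gave 5 calls (1 higher, 4 lower), against 2 without a filter, 1 with the replicate block, 1 without slide 4 and 0 with a trended prior. In castrated males 4 were higher and 19 lower in null glands (0.721% of all features called; 5 and 8 under quantile normalization, 11 and 36 with slide as a block). In sham females 5 were higher and 4 lower (0.486% of all features called; 10 and 13 after normexp and quantile normalization, 10 and 12 with the deposited values, 18 and 13 with slide as a block). In testosterone-injected females 1 probe, A_30_P01033330 of chr11:95644899-95658549, was called, at least 1.30-fold lower in null glands, where 0.0354% of all features were called. The group means were -7.31 in null, where it was not well above background, and -5.10 in WT. Its adjusted p of 0.0175 rests in part on that dim signal. Its 4 companions, none called, differed by -0.80 to -0.03, and it was not called after normexp or quantile normalization, with the deposited values, with a trended prior or without the albumin arrays. With slide as a block 2 probes were higher and 5 lower in these females. Without the arrays that go against their label the split was 1 and 4 in castrated males and 15 and 1 in sham females. Averaged over the 4 pairs 16 were higher and 57 lower, where 2.4% of all features were called, 383 higher and 361 lower. That split was 29 and 55 after normexp and quantile normalization, 31 and 49 under quantile normalization alone, 28 and 53 with the deposited values and 40 and 102 with slide as a block. The median difference of all lincRNA probes in the average was -0.09, against -0.02 for all features, and 0.04 without slide 4, so its sign turned. The 4 zona glomerulosa markers had 1 higher and 2 lower in castrated null males, and their part in the result was not tested.

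For 3 lincRNA probes all 12 null arrays were below all 12 WT arrays, among 19 such features in either direction (0.0612% of those tested). A_30_P01019834, of chr1:85156338-85167730, gave -2.62, -1.96 and -1.80 in male sham, -2.48, -2.63 and -1.52 in castrated, -1.58, -1.92 and -1.59 in female sham and -2.92, -1.98 and -2.0 in testosterone-injected null arrays. The WT arrays gave -0.46, -0.51 and -0.56 in male sham, -0.48, -0.97 and -0.46 in castrated, -0.23, -0.86 and 0.79 in female sham and -0.51, -0.62 and 0.13 in testosterone-injected groups. The average difference was -1.69 ± 0.19 (adjusted p = 5.48e-05), and the 4 pairs gave -1.97 to -1.57, none called alone. The other 2 probes of its interval and strand differed by -0.67 to -0.15 and were not called. Over the 24 arrays the lincRNA probes most like it were A_30_P01024599 (r = 0.85), A_30_P01021081 (r = 0.844) and A_30_P01030790 (r = 0.841).

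The others, A_30_P01021081 and A_30_P01030223, lie side by side in chr2:119697845-119719245. A_30_P01021081 ranged from -4.37 to -3.48 on null and from -3.38 to -2.48 on WT arrays, and A_30_P01030223 from -5.42 to -4.14 and from -4.12 to -2.57. Their average differences were -0.86 (adjusted p = 0.0018) and -0.94 (adjusted p = 0.00163). The third probe of the interval, A_30_P01021461, was also lower (-0.61, adjusted p = 0.0197), so that all 3 detected probes of this lincRNA fell together. The same was true of the 3 adjoining probes at chr14:103759457-103759636, where the average was -1.45 ± 0.23 for A_30_P01027805 (adjusted p = 0.00168), -1.34 for A_30_P01018124 (adjusted p = 0.00104) and -1.06 for A_30_P01020301 (adjusted p = 0.000659). A_30_P01027805 gave -3.59, -3.58 and -4.94 in castrated null and -1.88, -2.28 and -2.29 in castrated WT arrays. These did not overlap, but the difference in castrated males was not called for this probe. The 2 probes that adjoin it were called there, at -1.83 and -1.50. In the average the other probes of that locus reached up to 0.33.

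Lower levels in castrated null males came together at a few loci. All 3 probes at the 3′ end of chr1:73664661-73911040 were lower than in castrated WT males, at -1.80 to -1.48, and lower than in null sham males, at -1.95 to -1.56. A_30_P01022642 gave -4.06, -4.09 and -4.23 in castrated null, -2.04, -2.05 and -2.88 in castrated WT and -1.93, -1.98 and -2.62 in male null sham arrays. The castrated null arrays did not overlap with either group, and the differences were -1.80 ± 0.35 (adjusted p = 0.0144) and -1.95 ± 0.35 (adjusted p = 0.00686). Without the arrays that go against their label they were -1.91 and -1.61 and not called (adjusted p = 0.124 and 0.445). At chr10:39659425-39679959 (reverse strand) 6 of 8 probes were lower in castrated null than castrated WT males, at -1.40 to -0.85, and 5 were lower in the average, at -0.68 to -0.44. At chr19:46422690-46423478 the 3 probes fell after castration of null males, by 0.86 to 1.13. A_30_P01028196 gave -2.45, -2.27 and -2.53 in castrated and -1.18, -1.25 and -1.49 in male null sham arrays (-1.11, adjusted p = 0.000887), and a probe of 2310034G01Rik lies in the same interval.

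The interval chr19:5771425-5848475 surrounds Neat1 and Malat1, abundant nuclear noncoding RNAs whose gene probes lie on the reverse strand. With the forward-strand intervals that overlap it, 3 in all, it had 15 detected probes, and 4 of these were lower in the genotype average. The largest was A_30_P01020677 (-0.89, adjusted p = 0.00488). It gave -1.90, -0.91 and -1.23 in male null sham and 0.16, -0.24 and 0.20 in male WT sham arrays. That pair alone differed by -1.39, more than the average, and was not called by limma (adjusted p = 0.243). The gene probes of Neat1 and Malat1, on the other strand, had averages of -0.62 and -0.18 and were not called (adjusted p = 0.188 and 0.731). The largest average falls of single probes were A_30_P01021939 on chromosome 11 (-1.85 ± 0.33, adjusted p = 0.00511) and A_30_P01033314 on chromosome 13 (-1.83 ± 0.36, adjusted p = 0.00871), whose companion probes differed by -0.17 to 0.07 and -0.19 to 0.03.

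Other probes of the same interval and strand, here called companions, show whether a difference was read by more than 1 oligonucleotide. The 92 named results, each a probe in a comparison, fall on 61 probes of 53 intervals, and 23 had no other detected probe on their strand. Of the other 69, the companions all had the same sign in 55, and another companion was called in 25. In 14 results every companion moved by less than 1 part in 4 of the named probe's difference. The 3 intervals with most probes, chr16:43623581-43642715 (20), chr7:99879368-99889978 (20) and chr11:3538125-3554450 (18), held 0 called probes in any comparison, with genotype averages of -0.31 to 0.17, -0.40 to 0.40 and -0.23 to 0.42.

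Among the results that companions did not share, several have detected probes on the other strand, and 1 of these, picked after its values were seen, is shown. A_30_P01018526 (reverse) and A_30_P01024571 (forward) cover the same DNA at chr16:84706015-84706064, and capitals mark the 50 bases they share as complements.
A_30_P01018526: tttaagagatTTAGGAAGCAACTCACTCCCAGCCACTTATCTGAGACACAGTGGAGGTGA
A_30_P01024571: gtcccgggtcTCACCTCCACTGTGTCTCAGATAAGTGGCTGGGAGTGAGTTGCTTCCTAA
A_30_P01018526 gave -4.98, -4.96 and -5.43 in male WT sham, -3.13, -3.27 and -2.85 in castrated WT and -2.85, -3.34 and -2.51 in female WT sham arrays. It was higher with low androgen by 1.40 ± 0.22 in the average (adjusted p = 0.000924), while its 2 same-strand companions differed by -0.06 to 0.06. A_30_P01024571 gave -4.05, -4.58 and -4.17, then -4.44, -4.32 and -3.85, then -4.76, -4.56 and -2.83 in the same groups, which overlap. The signal that rose was thus read by one strand only at this position.

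The 16 probes higher in null glands in the genotype average include A_30_P01024637 (1.23 ± 0.22, adjusted p = 0.00571) and the 3 probes beside Naf1 (0.65 to 0.81). A_30_P01024637 was nevertheless lower in null than WT testosterone-injected females. The largest of the others was A_30_P01026562 of chr3:41143423-41359623 (1.19 ± 0.25, adjusted p = 0.014), whose 4 companions differed by -0.03 to 0.34. Next was A_30_P01023066 of chr5:15033568-15033987 (1.15 ± 0.26, adjusted p = 0.0219), whose companions differed by -0.12 to -0.09. At chr1:183783306-183834531 2 of 6 reverse-strand probes were called, at 0.31 and 0.32, and the 6 ranged from 0.25 to 0.36. Further falls seen by more than 1 probe were at chr17:29183003-29217681 (2 of 5 called, -0.81 and -0.76) and, for probes partly not well above background in whole groups and so without sizes, at chr3:57416618-57429679 (2 of 3) and chr4:114627748-114632898 (2 of 5). Lower with low androgen were 3 of the 4 probes of chr2:136327645-136341256, at -0.78 to -0.62, and 2 of 3 at chr9:111214181-111260465, at -0.94 and -0.78. In all, 12 loci held 2 or more separate called probes in each of the genotype and androgen averages.

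Probes far apart in the genome also shared their array patterns, and this was looked at after the values were seen. A_30_P01033314 on chromosome 13 matched 16 other features at r of 0.9 or more over the 24 arrays, so that the set of 17 lies on 12 chromosomes. It holds 5 lincRNA probes, among them A_30_P01018976 on chromosome 15 (r = 0.978) and A_30_P01021939 on chromosome 11 (r = 0.969), and 12 other features, led by Pde5a (r = 0.989), the gene of a cyclic GMP phosphodiesterase, and with the olfactory receptor genes Olfr681, Olfr362 and Olfr441. CCTCCAC was found in 7 of the 17 and in 2 of the 5 lincRNA probes, and is in capitals below. No 7-base word was found in more of the 17, but GCCCTCC was found in as many. Of such tied words the first in the alphabet was taken.
A_30_P01033314: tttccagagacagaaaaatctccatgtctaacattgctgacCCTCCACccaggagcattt
A_30_P01021939: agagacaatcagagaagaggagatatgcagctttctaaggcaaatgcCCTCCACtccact
A_30_P01018976: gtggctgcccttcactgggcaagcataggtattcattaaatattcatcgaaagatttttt
A_30_P01030159: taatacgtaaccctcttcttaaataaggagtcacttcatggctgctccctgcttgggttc
A_30_P01026357: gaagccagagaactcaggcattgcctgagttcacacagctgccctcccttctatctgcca
A_55_P2042778: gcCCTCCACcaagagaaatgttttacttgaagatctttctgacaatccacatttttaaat
A_51_P416059: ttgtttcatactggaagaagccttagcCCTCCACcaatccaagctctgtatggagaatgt
Of all 161 features with this word 9 were called lower and 1 higher in the genotype average, or 5.59% lower against 1.16% of all features. With the word on the other strand it was 2 of 160. All 17 features of the set were called lower in that average, so its 7 probes with the word are among the 9. Most of the 9 are thus the probes that gave the word. All 5 lincRNA probes of the set are among the 57 called lower in that average, and 7 of the 57 had r of 0.8 or more with A_30_P01033314. A second set surrounds A_30_P01021720 of chr17:56687541-56694631, which was higher with low androgen (0.89, adjusted p = 9.17e-05). It has 8 features on 7 chromosomes, 5 of them lincRNA probes, and includes A_30_P01028985 of the chromosome 8 locus above and Gm2694. Of its most frequent words the first in the alphabet was GCCCCAC, in 3 of the 8, again in capitals. TGCCCCA was found in as many.
A_30_P01021720: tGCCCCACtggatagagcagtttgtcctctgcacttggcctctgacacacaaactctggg
A_30_P01028985: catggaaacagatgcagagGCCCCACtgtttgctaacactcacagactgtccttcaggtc
A_30_P01019373: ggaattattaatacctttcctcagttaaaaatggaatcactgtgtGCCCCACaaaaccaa
A_30_P01021281: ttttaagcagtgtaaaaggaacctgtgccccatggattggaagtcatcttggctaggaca
Of all 88 features with this word 7 were called higher with low androgen (7.95%, against 1.69% of all features), and with the word on the other strand 0 of 73. All 8 features of this set were called higher, so its 3 probes with the word are among the 7. The sets and words were chosen from the same values as the differences, so these counts are descriptions without a test, and the part of the shared letters in the differences was not tested.

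Of 67 named long noncoding RNA genes 33 were measured, and in the genotype average 0 were called higher and 1 lower, Oip5os1 (-0.48, adjusted p = 0.0251), where 2.4% of all features were called. In the female to male WT comparison 0 were higher and 1 lower, and in the other 11 comparisons 0 were called. The median of the list in the genotype average was -0.10, against -0.02 over all features. Of 21 genes for proteins that bind, retain or degrade nuclear RNA, all measured, 1 was called in the genotype average, Jarid2, a subunit of Polycomb repressive complex 2 (0.34, adjusted p = 0.0357). In the androgen average 1 was called, Mtrex, the helicase that feeds nuclear RNA to the exosome (0.28, adjusted p = 0.027), where 2.79% of all features were called.

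The level of the lincRNA probes as a whole moved with the slide. The median deviation of the lincRNA probes from their own means ran from -0.36 to 0.04 on slide 1, whose labels give RNA integrity numbers of 7 to 9, from -0.22 to 0.05 on slide 2 (6 to 8), from -0.07 to 0.34 on slide 3 (5 to 8) and from 0.38 to 0.54 on slide 4 (3). Slide 4 holds female WT sham replicate 3 and female WT testosterone replicate 3, and no other array. The other features deviated by -0.12 to 0.06. Slides 1 and 2 hold replicates 1 and 2 of every group. The share of lincRNA probes above background ran from 71% to 91.5% of the 7713 over the arrays. Slide and RNA integrity move together here, and their part in the results was not tested.

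The probes on either side of the threshold were these. In castrated males the last null minus WT call was A_30_P01031487 (1.26, adjusted p = 0.0493) and the first not called was A_30_P01030293 (-0.81, adjusted p = 0.0564). In the genotype average they were A_30_P01027010 (-0.76, adjusted p = 0.0471) and A_30_P01022726 (1.34, adjusted p = 0.0504), and in the androgen average A_30_P01033296 (0.38, adjusted p = 0.05) and A_30_P01033485 (1.31, adjusted p = 0.0506). In sham males, where 0 were called, the nearest was A_30_P01020677 (-1.39 ± 0.32, adjusted p = 0.243).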

How the data were processed

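One-colour Agilent arrays of total RNA from mouse adrenal gland were read with Feature Extraction 10.7.3.1, per the file headers, which give design build mm9. The intensity used is the authors' processed signal, deposited per spot after background subtraction. The deposited value table, on a log2 scale whose steps are not given in the sources used here, served as an alternative. From the intensity, log2 of the signal over the array's 75th percentile was computed over non-control spots, with outlier spots left out (68 lincRNA probes miss 1 value) and spots of a probe averaged. Between 57.0% and 64.7% of spots were well above background. limma 3.58.1 in R 4.3.3 fitted 8 group means to 31047 features with 3 or more arrays above background, with empirical Bayes moderation. The text names probes among the up to 6 called in each comparison and direction with the largest differences, 1 per interval and strand, whose groups did not overlap in comparisons of 2 groups, with their companions, the nearest gene probe within 100 kb and the probes next to the threshold. Coordinates are those of the files; 65 lincRNA probes carry none of their own. The members and lists were chosen with earlier results of these data known. Promoter sequences and a genome of build mm9 were not used here. The fit was checked on simulated data. For null minus WT in castrated males, an added change of 1 log2 unit was called in 4 of 25 lincRNA features. Over all features with that change it was called in 37 of 100. An added change of 2 log2 units was called in 17 of 32 lincRNA features and in 70 of 100 over all features. There were 7 false calls. The part of this recovery in the lower called share of the lincRNA probes was not tested.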

Additional observations from a re-analysis of the deposited data

Results flagged for a closer look

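The results below are those in which the null minus WT difference was not the same at low and at high androgen, by the interaction term of the limma fit over 31047 features. Each is the difference at low androgen minus that at high androgen, in log2. For A_30_P01024637 of chromosome 1 it was 3.77 ± 0.45 (adjusted p = 0.000221). For A_30_P01019362, the probe beside Naf1, it was 1.71 ± 0.28 (adjusted p = 0.00699), and its 2 companions had 1.44 and 1.60. For A_30_P01030294 of chr1:15839444-15840383 it was 1.39 ± 0.29 (adjusted p = 0.0355), with companions at 1.64 and 1.88 that were not called. For A_30_P01019783 of chr12:109619407-109619843 it was 1.11 ± 0.22 (adjusted p = 0.0272). It was below 0 for A_30_P01020139 (-1.96 ± 0.37), a fitted value that rests on groups where the probe was not well above background and that its detection rule helped to choose, for A_30_P01033624 of chr16:29907604-29946602 (-1.11 ± 0.19, adjusted p = 0.00736) and for A_30_P01028196 (-0.78 ± 0.15, adjusted p = 0.0272). The interaction could not be fitted without the arrays that go against their sex label, so their part in these results was not tested. With 1 array left out at a time, the call of A_30_P01030294 was lost in 16 of 24 fits, that of A_30_P01028196 in 13 and that of A_30_P01019783 in 10. A_30_P01024637, A_30_P01019362 and A_30_P01033624 kept theirs in all 24. Under the other settings the call was lost in 5 for A_30_P01019783, 5 for A_30_P01028196, 2 for A_30_P01033624 and 1 for A_30_P01030294. The fitted value of A_30_P01020139, for which no test is given, was not called in 6 of the other settings.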

How the results depend on the processing

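Of the 92 named results none reversed sign under any alternative run that could be fitted for them. Under every left-out array 41 stayed called, and 31 under every other setting that could be fitted for them. The run without the arrays against their label could be fitted for only 58 of the 92, and most of these lost their call there. That on probes above background on all arrays covered 47. The 31 thus did not all pass the same settings. The cause of the changes below was not tested. Numbers of called lincRNA probes that moved by over 1.5 times follow. Null minus WT in sham males (0) gave 2 without a filter, 1 with the replicate block, 5 with slide as a block and 1 without slide 4. In castrated males (23) it gave 13 after normexp with quantile normalization, 13 after quantile alone, 13 with the deposited values, 11 without a filter, 41 with the replicate block, 47 with slide, 38 with RNA integrity and 5 without the arrays against their label. In sham females (9) it gave 23 after normexp, 22 deposited, 36 with the block, 31 slide, 25 integrity, 16 label and 24 without the albumin arrays. In testosterone females (1) it gave 0 on probes above background on all arrays, 8 block, 7 slide, 3 integrity, 0 trended and 0 albumin. Castration in WT (19) gave 32 slide and 32 albumin, and in null (20) 34 block, 51 slide, 38 integrity, 1 label and 39 albumin. Testosterone in WT (3) gave 10 normexp, 6 quantile, 8 deposited, 0 unfiltered, 6 on all arrays, 12 block, 23 slide, 12 integrity, 1 without slide 4 and 5 albumin, and in null (3) 1 deposited, 10 block, 17 slide, 9 integrity, 5 without slide 4 and 1 label. Female minus male in WT (55) gave 96 block, 152 slide, 96 integrity, 84 without slide 4, 116 label and 96 albumin, and in null (12) 27, 49, 25, 22, 1 and 30. The genotype average (73) gave 47 unfiltered, 200 block, 142 slide and 189 integrity, the androgen average (70) 174 slide, and the interaction (11) 6 quantile, 6 unfiltered, 18 block, 26 slide and 20 integrity.

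Replicates 1 share slide 1, replicates 2 slide 2 and replicates 3 slides 3 and 4, so the replicate block is largely a slide block. The mean correlation of deviations was 0.226 for same-numbered arrays (lowest -0.355) and -0.109 for different numbers. Leaving out 1 array at a time gave 0 to 0 in sham males, 2 (male WT castrated 1) to 31 (female null testosterone 1) in castrated males, 4 (female null sham 1) to 21 (female WT sham 2) in sham females and 0 (female WT testosterone 1) to 2 (female WT sham 2) in testosterone females. Castration in WT ranged from 11 (male WT castrated 1) to 22 (male WT sham 3), in null from 5 (male null sham 1) to 36 (female WT sham 1). Testosterone in WT ranged from 0 (female WT sham 2) to 5 (female WT testosterone 1), in null from 2 (female null sham 1) to 5 (female WT testosterone 1). Female minus male ranged in WT from 22 (male WT sham 1) to 76 (female WT sham 2), in null from 2 (male null sham 1) to 26 (female null testosterone 1). The genotype average ranged from 48 (male null sham 1) to 99 (female WT sham 1), the androgen average from 49 (male null sham 1) to 90 (female null testosterone 1) and the interaction from 6 (male WT sham 1) to 15 (female null testosterone 2). Signal over background limits dim probes, which 24 arrays measure with the median errors given above.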
